A study of Mus musculus and Callithrix jacchus with 22 samples.

Results

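Parvalbumin interneurons were followed in single-cell maps of open chromatin from the neocortex of mice and of marmosets, small New World monkeys. Their members were all cells that the authors' annotation named Inh_Pval in mouse or Inh_Pvalb in marmoset. They numbered 1143 of 35064 cells, with 326 of 19145 in mouse and 817 of 15919 in marmoset. In single-cell ATAC-seq a transposase cuts accessible DNA, and each cell is described here by its reads and by its peaks, the accessible regions in which it had a read.

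The mice were wild-type C57BL/6 animals 1, 7 or 21 days after birth (P1, P7, P21), with 4 libraries at each age from somatosensory and motor cortex. The marmosets were wild type too and were adults labelled Y7 (2 libraries) or Y8 (3 libraries) or newborns labelled Day0 (5 libraries). Their tissue is labelled somatosensory cortex, whereas the methods of the study name motor cortex as well. Mouse cells were fixed, tagged on plates and distributed by sorting into wells, and marmoset cells were released with papain, sorted as live cells and tagged in droplets. All parvalbumin cells of mouse were from P21 and all those of marmoset from newborns (Day0). Species, age and method therefore cannot be told apart, and the species are given side by side with no test. Nothing in the labels or methods says that libraries came from separate animals, so p-values measure only the spread between libraries, which may be technical.

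Pyramidal neurons are excitatory, and among them are the cells of the cortex's long-range output. Parvalbumin interneurons are fast-spiking inhibitory cells that contact their cell body or the start of their axon. They arise in the medial ganglionic eminence, as do somatostatin (Sst) interneurons, which target dendrites. Their precursors use the transcription factor Lhx6, whereas the calcium-buffering protein parvalbumin itself (Pvalb) appears only after birth in mouse. Interneurons that make vasoactive intestinal peptide (Vip) arise in the caudal ganglionic eminence.

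The name was given at 1 age in each species. In mouse all 326 cells were from P21, where 950 of 7331 neurons were interneurons, and they were exactly the cells of cluster 19, which held no cell of P1 or P7. At P1 the 898 interneurons of 4092 neurons were named by origin, with 347 medial (Inh_MGE, cluster 6) and 551 caudal (Inh_CGE, cluster 11) cells. At P7 the 755 interneurons of 4495 neurons were named Sst (571 cells, again cluster 6) or Npy (184 cells, cluster 13), after neuropeptide Y. At P21 the other interneurons were 359 Sst cells of cluster 17 and 265 Npy cells of cluster 13.

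In marmoset the name was absent from the adult libraries, where 395 of 901 neurons were interneurons and carried the names Sst (281 cells, cluster 22) or Vip (114 cells, cluster 12). At Day0 all 817 parvalbumin cells formed cluster 5, beside 675 Sst cells of cluster 9, 910 Vip cells of clusters 11 and 12 and 330 Npy cells of cluster 16. Parvalbumin cells were 817 of the 2732 Day0 interneurons. The study split clusters by age and dropped those with few cells, so a count of 0 here concerns names of clusters and sets no limit on the cells in the tissue. Ages could not be compared for this reason. The names rested on gene activity scores of marker genes, and no value per gene was analysed here, so the name could not be checked against Pvalb or Lhx6.

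Libraries differed within an age before any comparison of cell types. Day0 libraries 1 and 2 held 2 and 8 layer IV neurons and 168 and 188 unspecified excitatory neurons (ExNeuron), against 178, 147 and 113 layer IV neurons and 0, 1 and 0 ExNeuron cells in libraries 3, 4 and 5. Results for Day0 are therefore also given for libraries 1 and 2 and for libraries 3 to 5. Pyramidal neurons below are all excitatory names together, with layer IV and ExNeuron cells included. Their makeup thus differed between these sets of Day0 libraries. At P21, 1627 of the 6381 pyramidal neurons were layer IV cells. Mouse libraries at P21 came in a numbered and a Pool series of 2 each, and 888 cell barcodes occurred in more than 1 of the 4 libraries (numbered 1 with Pool 1, or numbered 2 with Pool 2). Of the parvalbumin cells 74 (22.7%) had such a barcode, against 21.6% of other neurons, and in 0 of the shared pairs were both cells parvalbumin cells. Parvalbumin cells are few, so this 0 says little on its own. Of all pairs of numbered 1 with Pool 1, 16.9% held cells of the same type, against 16.0% from the shares of types. For numbered 2 with Pool 2 these values were 15.7% and 16.9%. The barcode part called P2 in the cell names ran from 1 to 8 in numbered 1 and in Pool 1. It ran from 9 to 16 in numbered 2 and in Pool 2. At Day0, 34 barcodes were shared, among them those of 5 parvalbumin cells (0.612%, against 0.749% of other neurons).

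Parvalbumin cells were about 1 in 20 of the P21 mouse neurons. In mouse the numbered libraries held 121 and 88 parvalbumin cells, or 3.84% and 4.76% of neurons, and the Pool libraries 61 and 56, or 5.00% and 5.04%. The Wilson 95% interval was 3.22% to 4.57% in numbered library 1 and overlapped those of the other libraries, the highest of which reached 6.48%. The mean was 4.66% ± 0.559 (SD, n = 4 libraries). These intervals cover counting error only.

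In the newborn marmoset the 5 libraries held 138, 134, 173, 195 and 177 parvalbumin cells, or 12.5%, 11.9%, 12.8%, 15.3% and 15.2% of neurons. The mean was 13.5% ± 1.61 (SD, n = 5 libraries), with 12.2% in libraries 1 and 2 and 14.4% in libraries 3 to 5. The intervals of neighbouring libraries overlapped, and that of library 2 (10.1% to 13.9%) also overlapped that of library 4 (13.4% to 17.4%). These values describe the cells that passed into the tables, which need not mirror the tissue.

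**Figure D1:**
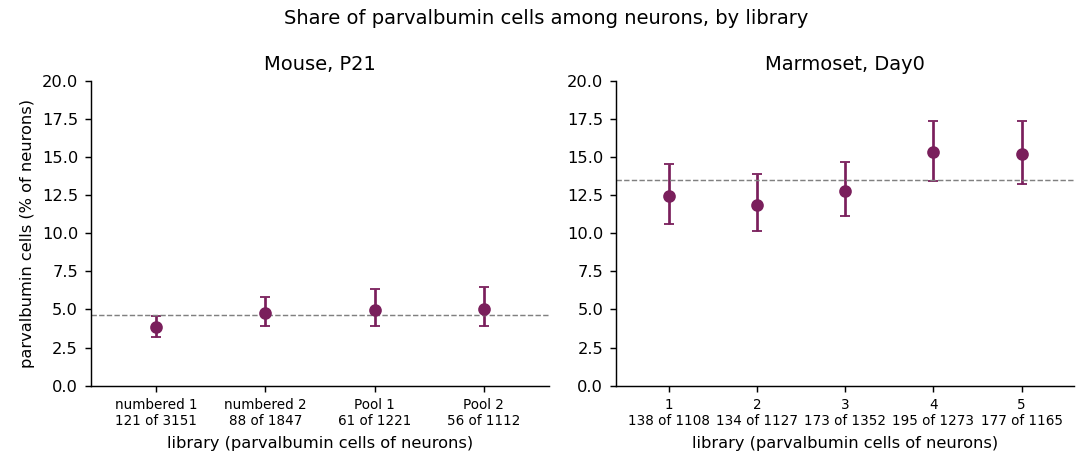
Parvalbumin cells as a percentage of the neurons of each library, for mouse P21 (left) and marmoset Day0 (right). Points are libraries, bars are Wilson 95% intervals and the dashed line is the mean of libraries. The mouse points lie between 3.84% and 5.04% and the marmoset points between 11.9% and 15.3%.

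Parvalbumin cells made up 31.4%, 35.3%, 35.7% and 38.6% of P21 mouse interneurons (numbered 1 and 2, Pool 1 and 2), a mean of 35.3% ± 2.95 (SD, n = 4). In Day0 marmoset they made up 26.0%, 25.4%, 29.8%, 35.0% and 33.1%, a mean of 29.8% ± 4.24 (SD, n = 5). The marmoset denominator included Vip cells (33.2% ± 2.35 of interneurons), a name that the P21 mouse annotation did not use, so the denominators differ. The marmoset share was 25.7% in libraries 1 and 2 and 32.6% in libraries 3 to 5. Npy cells, with the reverse order, were 18.8% and 16.1% of interneurons in libraries 1 and 2, against 7.92%, 7.18% and 11.0% in libraries 3 to 5. Whether this goes with the other differences between these libraries was not tested.

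Parvalbumin cells were also counted against Sst cells, which are of medial origin too. In mouse the parvalbumin cells were 0.747, 1.01, 1.02 and 1.12 per Sst cell (121 to 162, 88 to 87, 61 to 60 and 56 to 50 cells). The mean log2 ratio was -0.05 ± 0.25 (SD, n = 4, exact sign-flip permutation test over libraries, two-sided p = 1, adjusted p = 1). Its sign rested on numbered library 1, and without that library it was 0.068. It depended on depth: among cells at or above the median reads or peaks of P21 neurons it was -0.91 or -1.01 (the same exact test, p = 0.125 each). Mouse parvalbumin cells had fewer reads and peaks than Sst cells in all 4 libraries (below), so these values restate that difference as a ratio. In marmoset the ratios were 1.15, 0.950, 1.18, 1.43 and 1.34 parvalbumin cells per Sst cell (138 to 120, 134 to 141, 173 to 146, 195 to 136 and 177 to 132 cells). The mean log2 ratio was 0.26 ± 0.23, or 1.20-fold, above 0 in 4 of 5 libraries (exact sign-flip permutation test, two-sided p = 0.125, adjusted p = 0.172). It was 0.064 in libraries 1 and 2 and 0.40 in libraries 3 to 5, and 0.094 or 0.057 among cells at or above the median reads or peaks of Day0 neurons (the same exact test, p = 0.6875 each). Lower medians than in Sst cells, in 4 of 5 libraries (below), enter these limited values too. In this design the smallest possible p is 0.125 for 4 libraries and 0.0625 for 5, so that no such test could pass 0.05. Adjusted values of the sign-flip test are over the 11 tests of each species.

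Mouse parvalbumin cells had fewer reads than other neurons in all 4 libraries. Their median reads per cell were 2830, 2441.5, 3185 and 2805.5, against 4167, 4045, 3989 and 4124.5 for all other neurons of the same libraries. The highest parvalbumin median was thus below the lowest median of the other neurons. The mean log2 difference was -0.54 ± 0.17 (SD, n = 4), or 0.687-fold, with p = 0.125, the smallest possible, and adjusted p = 0.153 in the exact sign-flip permutation test. It was -0.64 in the numbered and -0.44 in the Pool libraries.

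Sst cells of the same mouse libraries had medians of 4262.5, 3225, 4128 and 3226.5 reads. Each exceeded the parvalbumin median of its own library, and the mean log2 difference, parvalbumin minus Sst, was -0.39 ± 0.16, or 0.762-fold (exact sign-flip permutation test, p = 0.125, adjusted p = 0.153, n = 4). Against pyramidal neurons, with medians of 4235.5, 4159, 4073.5 and 4222 reads, it was -0.57 ± 0.17, or 0.672-fold (the same exact test, p = 0.125, adjusted p = 0.153, n = 4). Low reads were not particular to parvalbumin cells. Npy cells had medians of 2577.5, 2248.5, 2025 and 2978 reads, and these 2 types took the lowest 2 places among 7 neuron types in each library, with parvalbumin cells lowest in Pool 2 and next to lowest in the other libraries.

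The whole distribution of mouse parvalbumin cells lay low and narrow. Over the 326 cells the quartiles were 1802, 2793.5 and 3998.25 reads, with a range of 1010 to 14225. Cells under 2000 reads were 30.6%, 33.0%, 21.3% and 28.6% of parvalbumin cells in the 4 libraries, against 15.0%, 16.0%, 17.6% and 16.1% of other neurons. Only 2 of 326 parvalbumin cells (0.613%) had 12000 reads or more, against 194 of 7005 other neurons (2.77%). The SD of log2 reads per cell was 0.85, 0.70, 0.70 and 0.76 for parvalbumin cells, against 0.90, 0.90, 0.92 and 0.88 for all other neurons, a mixture of types. The study set a lower limit on reads, and the lowest mouse cell had 1000, so cells below that are not in these values. Parvalbumin cells accordingly held 2.69%, 2.88%, 3.54% and 3.46% of the reads of neurons, below their share of neurons in every library.

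Marmoset parvalbumin cells lay near the middle of the neurons. Their median reads were 7720, 6763, 7900, 8292 and 8694, against 7399, 7519, 8620, 8632 and 8656 for all other neurons. They were above in libraries 1 and 5 and below in the other 3. The mean log2 difference was -0.05 ± 0.09 (SD, n = 5), or 0.963-fold (exact sign-flip permutation test, p = 0.375, adjusted p = 0.375). In each library parvalbumin cells ranked 4 or 5 from the lowest among the 8 neuron types with at least 20 cells. These types differed, since layer IV cells were too few to rank in libraries 1 and 2 and ExNeuron cells in libraries 3 to 5.

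Against Sst cells the marmoset medians were lower in 4 of 5 libraries. Sst cells had 9757, 7909, 9145, 8055.5 and 9205.5 reads, and the mean log2 difference was -0.16 ± 0.15 (exact sign-flip permutation test, p = 0.125, adjusted p = 0.172, n = 5). It was -0.28 in libraries 1 and 2 and -0.08 in libraries 3 to 5. Against pyramidal neurons it was -0.13 ± 0.11 (the same exact test, p = 0.125, adjusted p = 0.172, n = 5), lower in 4 of 5 libraries.

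**Figure D2:**
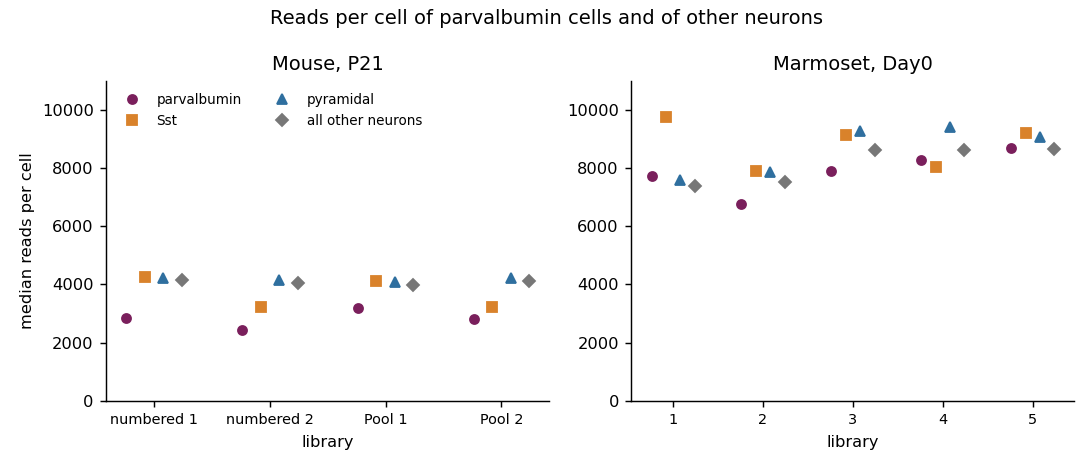
Median reads per cell in each library of mouse P21 (left) and marmoset Day0 (right) for parvalbumin cells, Sst cells, pyramidal neurons and all neurons other than parvalbumin cells. In mouse each parvalbumin median (2441.5 to 3185) is below the other 3 of its library. In marmoset the parvalbumin medians (6763 to 8694) are below the other 3 in libraries 2 and 3 and among them in libraries 1, 4 and 5.

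The distribution of marmoset parvalbumin cells was short at both ends relative to all other neurons, a mixture of types. Under 2000 reads lay 65 of 817 parvalbumin cells (7.96%), against 633 of 5208 other neurons (12.2%), and at 12000 reads or more lay 137 (16.8%), against 1247 (23.9%). The SD of log2 reads per cell was 0.97, 0.98, 0.93, 0.98 and 0.81, against 1.13, 1.08, 1.07, 1.09 and 1.07 in other neurons. With the mean of log2 values in place of the median, parvalbumin cells had more reads than all other neurons, by 0.054 on the log2 scale (exact sign-flip permutation test, p = 0.3125, n = 5), so the direction depended on the summary used. Against pyramidal neurons the mean of log2 reads likewise turned, to 0.071. The mean SD was 0.94 for parvalbumin cells and 0.92 for Sst cells. Of Sst cells, 7.26% lay under 2000 reads and 24.1% at 12000 reads or more, so the short lower end was not particular to parvalbumin cells. Low shares among the neurons with the most reads were also found for Vip and Npy cells (below). Parvalbumin cells held 12.9%, 11.0%, 12.6%, 14.8% and 15.4% of the reads of neurons. The study also set an upper limit on reads, and the highest marmoset cell had 14997, so cells above the limit are not in these values.

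The neurons of each library were then divided by reads into 4 equal groups, read group 1 with the fewest and read group 4 with the most reads. The mouse parvalbumin share was lowest in read group 4 in all 4 libraries. The mean shares in read groups 1 to 4 were 7.52%, 6.49%, 3.65% and 0.972% of neurons, from 139, 106, 63 and 18 parvalbumin cells. Read group 4 held 1.14% and 0.649% in the numbered and 0.656% and 1.44% in the Pool libraries, against 7.11%, 9.52%, 5.56% and 7.91% in read group 1, so that the groups did not overlap. The difference, read group 4 minus read group 1, was -6.55 ± 1.68 percentage points (SD, n = 4, exact sign-flip permutation test, p = 0.125, adjusted p = 0.153). Pool 1 had its maximum, 9.18%, in read group 2. Npy cells had mean shares of 7.74%, 3.90%, 1.85% and 1.35% in read groups 1 to 4, and Sst cells 6.00%, 4.59%, 4.48% and 4.20%. This difference restates the lower reads of parvalbumin cells as a share. When cells under the median reads of P21 neurons were left out, parvalbumin cells were 2.30% of neurons and 27.8% of interneurons.

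In marmoset the middle read groups held the larger shares on average. The means in read groups 1 to 4 were 11.7%, 16.3%, 16.2% and 9.98% of neurons, from 176, 247, 244 and 150 cells. Libraries 4 and 5 had 20.1% and 20.3% in read group 3, whereas library 2 had its maximum, 13.8%, in read group 2. The difference, read group 4 minus read group 1, was -1.69 ± 2.14 points, below 0 in 4 of 5 libraries (exact sign-flip permutation test, p = 0.25, adjusted p = 0.275). Vip cells had their largest mean share, 20.4%, in read group 2, and Npy cells theirs, 9.06%. Both had their smallest in read group 4 (10.8% and 2.64%), as parvalbumin cells did. Sst cells had mean shares of 7.41%, 12.8%, 12.8% and 11.9% in read groups 1 to 4, so the rise from read group 1 was not particular to parvalbumin cells.

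**Figure D3:**
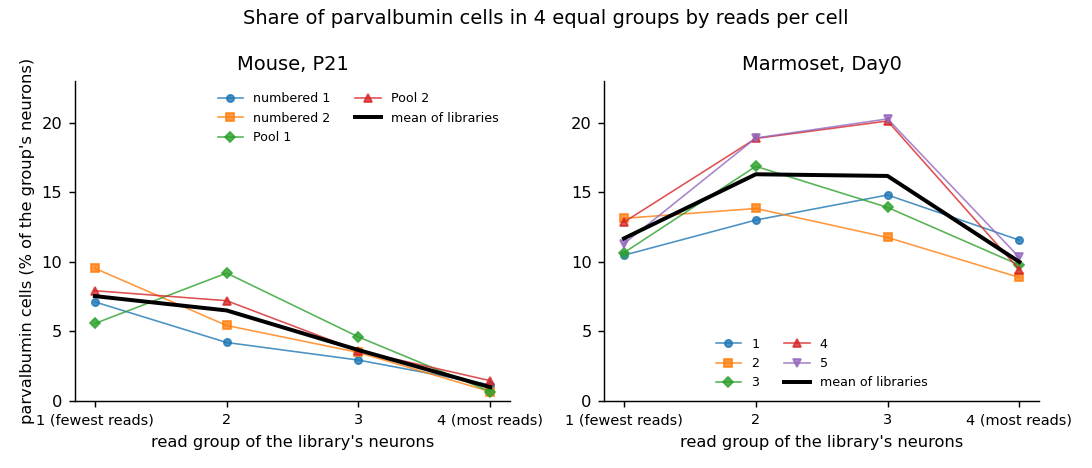
Parvalbumin cells as a percentage of neurons in 4 equal groups of each library's neurons by reads per cell, for mouse P21 (left) and marmoset Day0 (right). Thin lines are libraries and the thick line is their mean. The mouse mean is 7.52% in the group with the fewest reads and 0.972% in that with the most, and the marmoset mean is 16.3% and 16.2% in the middle groups.

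Peaks per cell followed reads. Mouse parvalbumin cells had median peaks of 1572, 1395.5, 1731 and 1556, against 2294, 2241, 2218 and 2306 in all other neurons, a mean log2 difference of -0.54 ± 0.13 (exact sign-flip permutation test, p = 0.125, adjusted p = 0.153, n = 4). Against Sst cells it was -0.37 ± 0.15 and against pyramidal neurons -0.57 ± 0.14, each below 0 in 4 of 4 libraries. Marmoset parvalbumin cells had median peaks of 3608, 3196, 4120, 4208 and 4372. The mean log2 difference was -0.11 ± 0.09 from all other neurons (below 0 in 4 of 5 libraries), -0.18 ± 0.14 from Sst cells (4 of 5) and -0.21 ± 0.11 from pyramidal neurons (5 of 5). With the mean of log2 values the first and the last turned, to 0.014 and 0.015. For the medians the exact sign-flip permutation test gave p = 0.0625 against pyramidal neurons and p = 0.125 against all other neurons and against Sst cells (adjusted p = 0.172 each, n = 5). Clusters were made from the matrix of these peaks, so that peak counts are not independent of the names. Because peaks followed reads, the comparisons of reads and the read groups may not be independent of the names either.

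At matched reads, parvalbumin cells of the marmoset had slightly fewer peaks than pyramidal neurons. For this a line of log2 peaks on log2 reads was fitted over all neurons of a library, and median residuals were compared. The residuals come from the peaks that also served to make the clusters, so they are not independent of the names either. The difference from pyramidal neurons was -0.074, -0.076, -0.049, -0.047 and -0.045 in the 5 libraries, a mean of -0.058 ± 0.015 (SD, n = 5), or 0.960-fold. The difference from all other neurons was -0.041 ± 0.0077, or 0.972-fold. Both were below 0 in 5 of 5 libraries, with p = 0.0625, the smallest possible, and adjusted p = 0.172 in the exact sign-flip permutation test. The values against pyramidal neurons separated the same sets of libraries as the composition did, with -0.075 in libraries 1 and 2 and -0.047 in libraries 3 to 5.

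From Sst cells the marmoset parvalbumin cells differed at matched reads by -0.0058 ± 0.0086 (SD, n = 5, exact sign-flip permutation test, p = 0.1875, adjusted p = 0.229), a span of -0.020 to 0.0012 over libraries. With 10 bins of reads in place of the line it was -0.019 (the same exact test, p = 0.0625), and with the ratio of peaks to reads -0.0010 (p = 0.75 in that exact test). In peaks per 1000 reads the medians were 466, 485, 517, 513 and 517 for parvalbumin cells, against 469, 483, 514, 515 and 518 for Sst cells and 494, 510, 540, 534 and 538 for pyramidal neurons. Parvalbumin cells lay below pyramidal neurons in every library, and within 4 peaks of Sst cells.

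In mouse, parvalbumin cells had 550, 560, 550 and 550 peaks per 1000 reads, against 551, 554, 555 and 555 in pyramidal neurons of libraries numbered 1, numbered 2, Pool 1 and Pool 2. At matched reads the difference from pyramidal neurons was -0.015 ± 0.0067 and that from all other neurons -0.013 ± 0.0066, or 0.990-fold and 0.991-fold. Both were below 0 in 4 of 4 libraries (exact sign-flip permutation test, p = 0.125, adjusted p = 0.153, n = 4). Their size depended on how reads were matched. With 10 bins of reads they were -0.030 and -0.028 (the same exact test, p = 0.125 each), and as ratios of peaks to reads -0.0036 and -0.0029 (p = 0.75 and 0.875 in that exact test). From Sst cells the difference was 0.00030 ± 0.0078 (the same exact test, p = 1, adjusted p = 1, n = 4), between -0.0084 and 0.011 over libraries, and its sign changed with the settings.

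**Figure D4:**
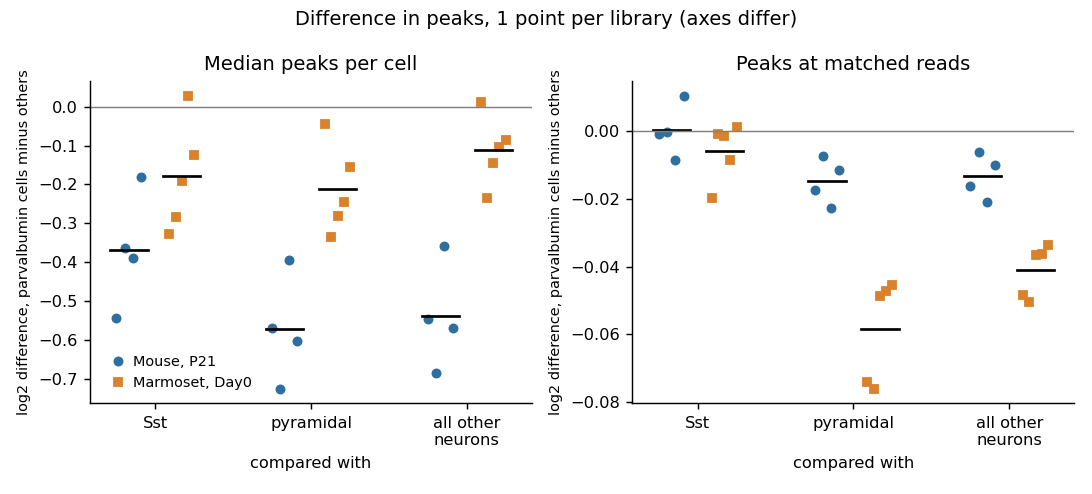
Log2 difference between parvalbumin cells and Sst cells, pyramidal neurons or all other neurons of the same library, for median peaks per cell (left) and for peaks at matched reads (right), with 1 point per library and a black line at the mean. The axes of the panels differ. At matched reads the marmoset means are -0.0058, -0.058 and -0.041 and the mouse means 0.00030, -0.015 and -0.013.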

How the data were processed

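Per the study, reads were trimmed by the authors, mapped to mm10 (mouse) or CalJac3 (marmoset) with Bowtie2, filtered with SAMtools, cleared of duplicates with Picard and sampled to similar depth per library. Peaks came from MACS2, cells were kept within limits on reads and peaks, and binary peak profiles were clustered. The submitters' processing notes name mm10 and MACS2. The sources used here do not say how doublets were handled.

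The deposited tables hold 1 row per cell with 2 columns of counts, reads and peaks with a read, without normalization. P21 libraries held 1321 to 3407 cells and 5601844 to 15904940 reads, and Day0 libraries 1613 to 1814 cells and 10821652 to 13441944 reads. Lowest reads per cell were 1000 and highest 14997 in both species.

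Cells were taken by their deposited names. Unassigned mouse cells (272 at P21) were in no denominator of neurons. Library medians were compared as log2 ratios by an exact two-sided sign-flip permutation test with the library as block, in which both cell types come from the same library, with Benjamini-Hochberg adjustment over 11 tests per species. The exact tests were tested on simulated data. Python 3.11.15, pandas 2.3.3, numpy 2.4.6, scipy 1.17.1 and matplotlib 3.10.9 were used. No gene was named by value. Members, lists and tests were chosen with earlier results of these data known.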

Additional observations from a re-analysis of the deposited data

Results flagged for a closer look

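The number of peaks per 1000 reads of mouse parvalbumin cells was 560 in numbered library 2 at P21, which stood apart from the other 3 libraries, all at 550. The gap was large for the range of the 4 libraries by Dixon's criterion at the 95% level. Of 34 groups of libraries checked this way it was the only one, and chance marks about 1 in 20. This library also had the lowest median reads of parvalbumin cells, 2441.5. Whether the higher ratio goes with the lower reads was not tested. At matched reads the same library differed from all other neurons by -0.0062, the smallest difference of the 4.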

How the results depend on the processing

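Of the alternative values, 197 with a test kept their direction and their side of 0.05, and 61 without one stayed close to the reported value or kept its direction. For the blocked test the side of 0.05 was fixed in advance, so that only a change of direction could alter this count. Sizes could still change, as given beside the results. With no replicate block (library values permuted between cell types, which ignores that both come from 1 library) 10 differences passed 0.05. In mouse these were reads (-0.54), peaks (-0.54) and matched peaks (-0.013) against all other neurons, reads (-0.39) and peaks (-0.37) against Sst cells, and reads (-0.57), peaks (-0.57) and matched peaks (-0.015) against pyramidal neurons (exact permutation test, adjusted p = 0.0321 each). In marmoset they were matched peaks against all other (-0.041) and pyramidal (-0.058) neurons (exact permutation test, adjusted p = 0.0357 each). Before adjustment this exact permutation test gave p = 0.0286 each in mouse and p = 0.00794 each in marmoset. These are the smallest possible values for 4 and 5 libraries, so they do not rank the differences. Peaks and matched peaks are also not independent of the names, and reads may not be, as given above. The adjustment here was over the comparisons of reads, peaks and matched peaks of each species only. With means of log2 values, 4 marmoset differences turned: reads 0.054 and peaks 0.014 against all other neurons, and reads 0.071 and peaks 0.015 against pyramidal neurons. Limiting cells to at least the median reads or peaks of P21 neurons gave a mouse share of 2.30% or 2.17% of neurons and 27.8% or 26.6% of interneurons. The mouse log2 ratio of parvalbumin to Sst cells was 0.094 in the Pool libraries alone and between -0.13 and 0.068 with each library left out, positive without numbered library 1. Matched peaks of mouse parvalbumin against Sst cells were -0.015 with 10 bins of reads in place of the line, -0.00046 in the numbered libraries and between -0.0031 and 0.0032 with each library left out, negative without Pool library 2. Leaving out libraries turned no other difference. The splits of the marmoset libraries and the averaging of libraries that agreed in cell types were added after the data were seen. With 4 or 5 libraries the blocked test cannot pass 0.05 at any effect size, and shares of 56 to 195 cells carry counting error of some percentage points.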

Other observations

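In the mouse plates, the parvalbumin share of P21 neurons also varied with the barcode. Of 4 barcode parts, the one called A2 in the cell names had the widest span among indices with more than 20 neurons. With index 2 of that part, 6 of 419 neurons were parvalbumin cells (1.43%, Wilson 95% interval 0.658% to 3.09%), against 4.63% of neurons with any other index. In each library the share at index 2 was the lower, with 4 of 191, 1 of 115, 0 of 61 and 1 of 52 neurons in numbered 1, numbered 2, Pool 1 and Pool 2. Neurons with this index had a median of 1440 reads, against 4198.5 with other indices. Over all P21 neurons the mean parvalbumin share was highest in the read group with the fewest reads (7.52%). Interneurons as a whole were 6.68% of the neurons with this index, against 13.3% with other indices. The share of Npy cells was low too (0.716%, against 3.79%), whereas that of Sst cells was 4.53%, against 4.92%. Indices 13 and 14 of A2 also had low parvalbumin shares and low median reads (2.99% and 3.21%, at 2572 and 2517 reads). Indices 12 and 17 had 5.59% and 5.16%, at 3776 and 3298 reads. Index 1 of the part called P2 had 2.88%, at 4037 reads. Index 2 was chosen after its values were seen, and no test was made.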
